A study of Mus musculus with 44 samples.

Results

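The genes described here are 37 macrophage and leukocyte genes, followed across mouse calvarial osteoblast cultures that were sorted by a green fluorescent protein (GFP) transgene. They were chosen by name as a set of monocyte, resident macrophage and alternative activation genes, and every probe set that the array annotation gives to 1 of them was taken. That made 62 of 36701 probe sets and 37 of 15964 named genes. Array A carried 50 of the 62 probe sets and 36 of the 37 genes, arrays B and C carried 6 probe sets each, and F13a1 was on B and C only. A probe set annotated to both Lyz1 and Lyz2 was left out because it cannot be given to 1 gene.

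RNA came from cultures of calvarial cells of newborn mice 7 days old, and was hybridised, 10 µg per sample, to the A, B and C members of an Affymetrix array set. The day 17 cultures carried pOBCol2.3GFP and received ascorbic acid and beta-glycerophosphate from day 7 on, and the day 7 cultures carried pOBCol3.6GFP and received no additions, so day, transgene and additions cannot be told apart. In both transgenes a fragment of the type I collagen promoter drives GFP, and the shorter one is used to mark more mature osteoblasts. On each day there were GFP-positive cells, GFP-negative cells and unsorted cells, each from 3 experiments (Exp100, Exp105 and Exp106 at day 17, Exp99, Exp101 and Exp103 at day 7), which makes 18 RNA samples in 6 groups. Nothing states that the experiments were separate animals or cultures, so p-values cover the spread between samples only, which may be technical. Unsorted RNA was compared on array A only.

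Macrophages arise from blood monocytes or from cells seeded into tissues before birth, and the marrow and surfaces of bone hold both macrophages and osteoclasts, their multinucleated bone-resorbing relatives. Survival of the lineage depends on the receptor for macrophage colony-stimulating factor, encoded by Csf1r, and its gene programme on the transcription factor PU.1, encoded by Spi1. Cultures grown from calvarial bone carry such cells along with the osteoblasts and the fibroblast-like cells.

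Values below are normalised intensities, made by quantile normalization of the deposited intensities within each array type. A difference is on the log2 scale of the intensity plus 32, with its standard error (SE). A probe set was called where its adjusted p in limma, over all probe sets of the comparison, was under 0.05. Only probe sets above their array's median on at least 3 arrays were tested, which kept 42 member probe sets of 30 genes for comparisons between sorted groups and 38 of 32 genes for those on array A. A member could pass through the group in which it is high, so counts over the tested members are descriptions. Each gene is given by 1 probe set, in a comparison by a tested one, from array A where it has one and then the brightest. Per-sample values run in the order of the experiments just named.

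On the whole arrays, Exp106 stood apart: its sorted samples correlated with the others at a mean of 0.839 on array A, against 0.943 among the others. Labels of 4 other arrays were in doubt. Genes with a bright probe set on both array A and array B (837 genes) were compared sample by sample, and the 4 day 7 sorted arrays of type B labelled Exp101 and Exp103 did not go best with the same sample on array A. GFP-negative Exp101 on A went with the array labelled GFP-positive Exp103 on B (r = 0.476, against 0.162 with its own label), and GFP-positive Exp101 on A also went with it (r = 0.411, against 0.0208). The labels were kept as deposited, and array B was also left out. Among the members F13a1 is given by a probe set on array B, and in comparisons between sorted groups so is Cybb, whose array A probe set stayed below the filter there. Day 7 unsorted samples likewise deviated from their group with sorted samples of another number: unsorted Exp103 correlated with GFP-negative Exp101 at 0.407 and with GFP-negative Exp103 at -0.252. The labelled tissue was checked by osteoblast genes: Ibsp, a bone matrix sialoprotein, rose by 6.86 ± 0.88 (log2, SE) in day 17 over day 7 unsorted cells, and Phex, an endopeptidase of mature osteoblasts and osteocytes, was 4.16 ± 0.46 higher in GFP-positive than in GFP-negative cells at day 17.

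In unsorted cultures most members were higher at day 17. At day 17 against day 7, 21 of 38 tested member probe sets, of 20 genes, were called higher, beside 3.04% of all 7455 probe sets called higher, and 0 members were called lower. The median difference over the 32 genes was 2.30, with all 32 above 0, and the median over all tested probe sets was -0.09. Without the filter the median over the 36 member genes on array A was 2.20. In bulk RNA, more cells of a type and more RNA of a gene per cell cannot be told apart.

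**Figure D1:**
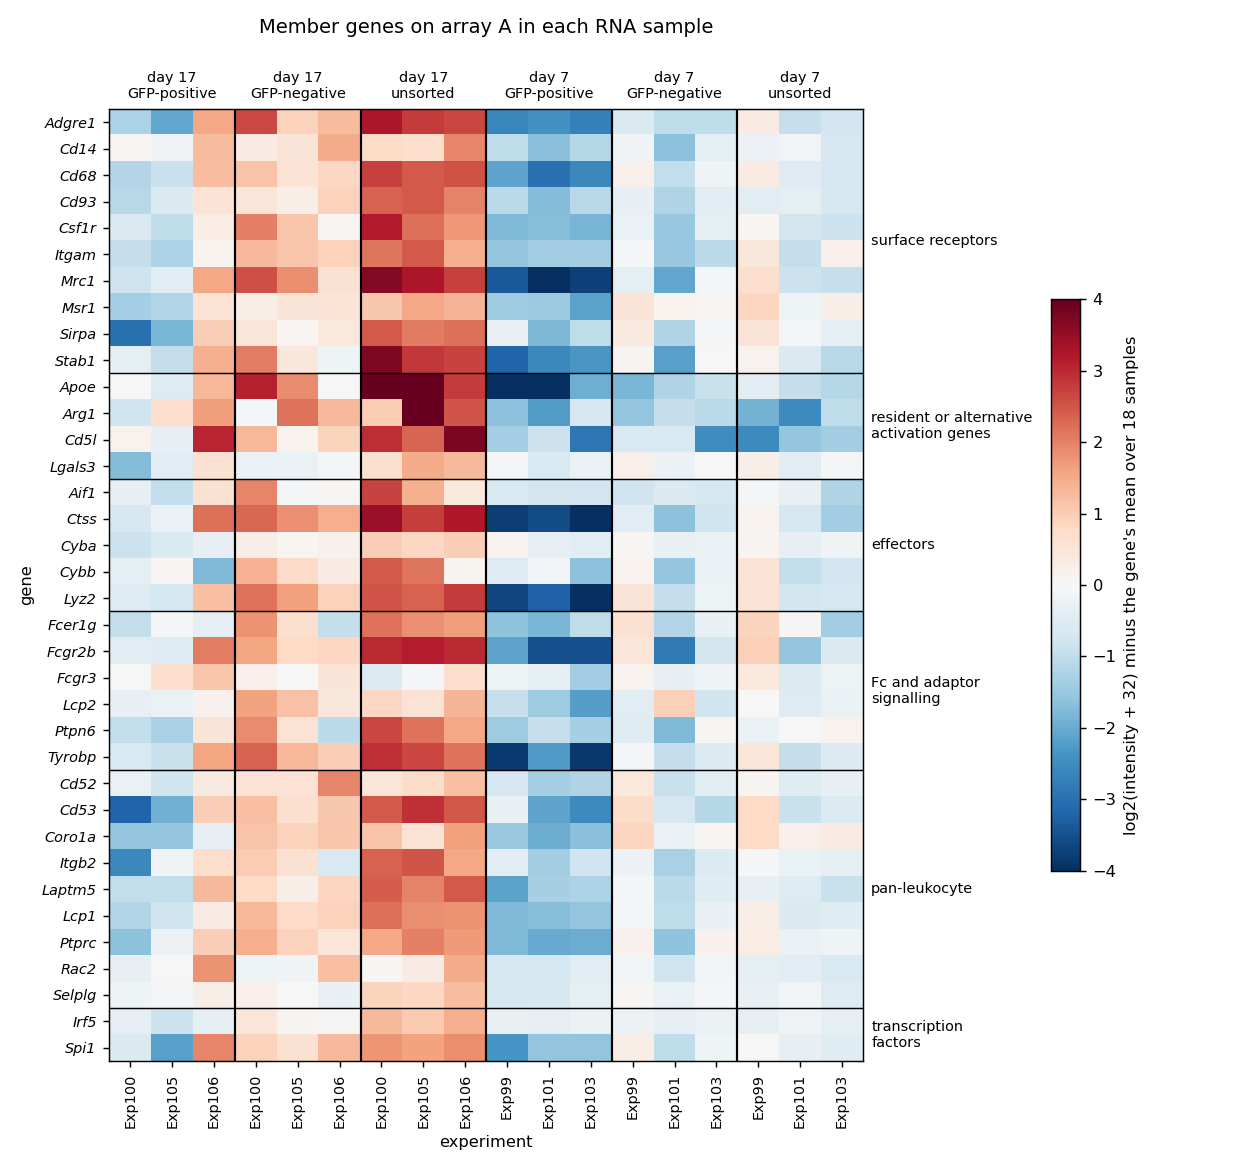
Member genes on array A (rows, grouped by role) in each RNA sample (columns, grouped by day and fraction); colour is log2 of the intensity plus 32 minus the gene's mean over the 18 samples. The 3 unsorted samples of day 17 form the reddest block, the 3 GFP-positive samples of day 7 the bluest, and GFP-positive Exp106 of day 17 is redder than GFP-positive Exp100 and Exp105.

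Among surface receptors, Csf1r, the lineage's growth factor receptor, had 13877, 7214 and 5203 in day 17 unsorted cells, against 1599, 909 and 826 in day 7 unsorted cells. The groups did not overlap, and the difference was 2.88 ± 0.50 (7.37-fold, adjusted p = 0.0034). Adgre1, which encodes the macrophage marker F4/80, had 5582, 4158 and 3836 at day 17, against 726, 283 and 318 at day 7. Its difference of 3.36 ± 0.68 (adjusted p = 0.0097) lost its call without day 7 unsorted Exp103 (highest adjusted p over the alternatives 0.053). Cd68, a lysosomal glycoprotein of macrophages, had 16027, 13223 and 14112 at day 17, against 3005, 1670.4 and 1489.5 at day 7. Its samples lay close together at day 17, and the difference was 2.86 ± 0.50 (adjusted p = 0.0036). Mrc1, the mannose receptor, had 10649, 7823 and 5554 at day 17, against 1338, 432 and 411 at day 7, a difference of 3.57 ± 0.68 (11.8-fold, adjusted p = 0.0064). Stab1, a scavenger receptor of resident macrophages and sinusoidal endothelium, rose by 3.61 ± 0.70 and Cd93, a receptor of myeloid and endothelial cells, by 2.73 ± 0.39. Itgam, the alpha chain of the integrin CD11b/CD18, rose by 2.11 ± 0.55 (adjusted p = 0.036), and lost its call in 6 of 9 alternatives. Of this group Msr1, Sirpa and Cd14 were not called, with differences of 1.02 ± 0.42, 2.22 ± 0.71 and 1.5 ± 0.46.

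Genes of resident and alternatively activated macrophages were also higher. Cd5l, a secreted scavenger protein of tissue macrophages, had 2843, 1839.7 and 5082 in day 17 unsorted cells, against 32.6, 95.6 and 111 in day 7 unsorted cells (4.84 ± 0.81, adjusted p = 0.0028). Apoe, a lipid carrier that macrophages and many other cells secrete, had 96672, 71772 and 28481 at day 17, against 3007, 2103 and 1810.1 at day 7 (4.67 ± 0.76, 25.5-fold, adjusted p = 0.0023). For both genes each day 17 sample lay far above each day 7 sample. The day 7 values of Cd5l were near the lowest intensities, so its difference depends on the settings (3.92 to 5.25 over the alternatives) and no fold is given. Arg1, the arginase of alternative activation, had 629, 11393 and 1841 at day 17, against 57.4, 24.2 and 131 at day 7. The day 17 samples of Arg1 differed widely among themselves, with Exp105 highest, its day 7 values were also near the lowest intensities (3.56 to 5.62 over the alternatives), and the difference of 4.69 ± 0.89 (adjusted p = 0.0065) lost its call when only the unsorted groups entered the fit (0.051, its highest). Lgals3, galectin-3, had a difference of 1.23 ± 0.41 and was not called.

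Effectors and signalling genes went the same way where they were called. Ctss, the lysosomal protease cathepsin S, had 43351, 27564 and 37207 in day 17 unsorted cells, against 4479, 2494 and 1531 in day 7 unsorted cells (3.76 ± 0.57, 13.6-fold, adjusted p = 0.0016). Lyz2, the lysozyme of myeloid cells, had 45519, 40683 and 55506 at day 17, against 11915, 4806 and 4817 at day 7 (2.84 ± 0.50, adjusted p = 0.004). Neither gene's groups overlapped. Cyba, a subunit of the phagocyte NADPH oxidase that other cells also make, rose by 1.05 ± 0.20, while its partner Cybb had a difference of 1.97 ± 0.71 that was not called. Tyrobp, the adaptor DAP12, rose by 2.93 ± 0.60 and Fcgr2b, the inhibitory Fc receptor, by 3.45 ± 0.82. Calls of both depended on single samples: Tyrobp lost its call without day 7 unsorted Exp101 or Exp103 (highest adjusted p 0.056), and Fcgr2b without any 1 of 5 of the 6 samples (highest 0.11).

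Pan-leukocyte genes and transcription factors were less uniform. Laptm5, a lysosomal membrane protein of blood cells, rose by 2.85 ± 0.48, Lcp1, the leukocyte actin-bundling protein L-plastin, by 2.21 ± 0.35, and Selplg, the selectin ligand PSGL-1, by 1.28 ± 0.21. Itgb2, the shared beta chain of leukocyte integrins, was called at 2.38 ± 0.67 (adjusted p = 0.049) but lost the call in 9 of 13 alternatives. Not called were Cd53 (2.85 ± 0.84), Cd52 (1.05 ± 0.43), Coro1a (0.69 ± 0.39) and Rac2 (1.08 ± 0.50). Irf5, a factor of inflammatory macrophage genes, had 2053, 1727 and 2274 in day 17 unsorted cells, against 621, 711 and 610.4 in day 7 unsorted cells, with the lowest adjusted p of the members (1.59 ± 0.21, adjusted p = 0.00048). Spi1 had 1979, 1773 and 2097 at day 17, against 553, 436 and 391 at day 7, without overlap, and its difference of 2.02 ± 0.69 was not called. Ptprc, the common leukocyte antigen CD45, stayed below the filter on array A, with 481, 669 and 531 at day 17, against 179.7, 111 and 123 at day 7. Also below it on array A were Ptpn6, a phosphatase of blood cells, with 971, 684 and 432 at day 17, against 100.4, 123 and 143 at day 7, and Aif1, a calcium-binding protein of macrophages, with 690.3, 263 and 115, against 72, 59.2 and 16.6. Fcgr3, an activating Fc receptor and the other member below the filter, had 209, 296 and 530.0 at day 17, against 434, 208 and 273 at day 7, so its groups overlapped.

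**Figure D2:**
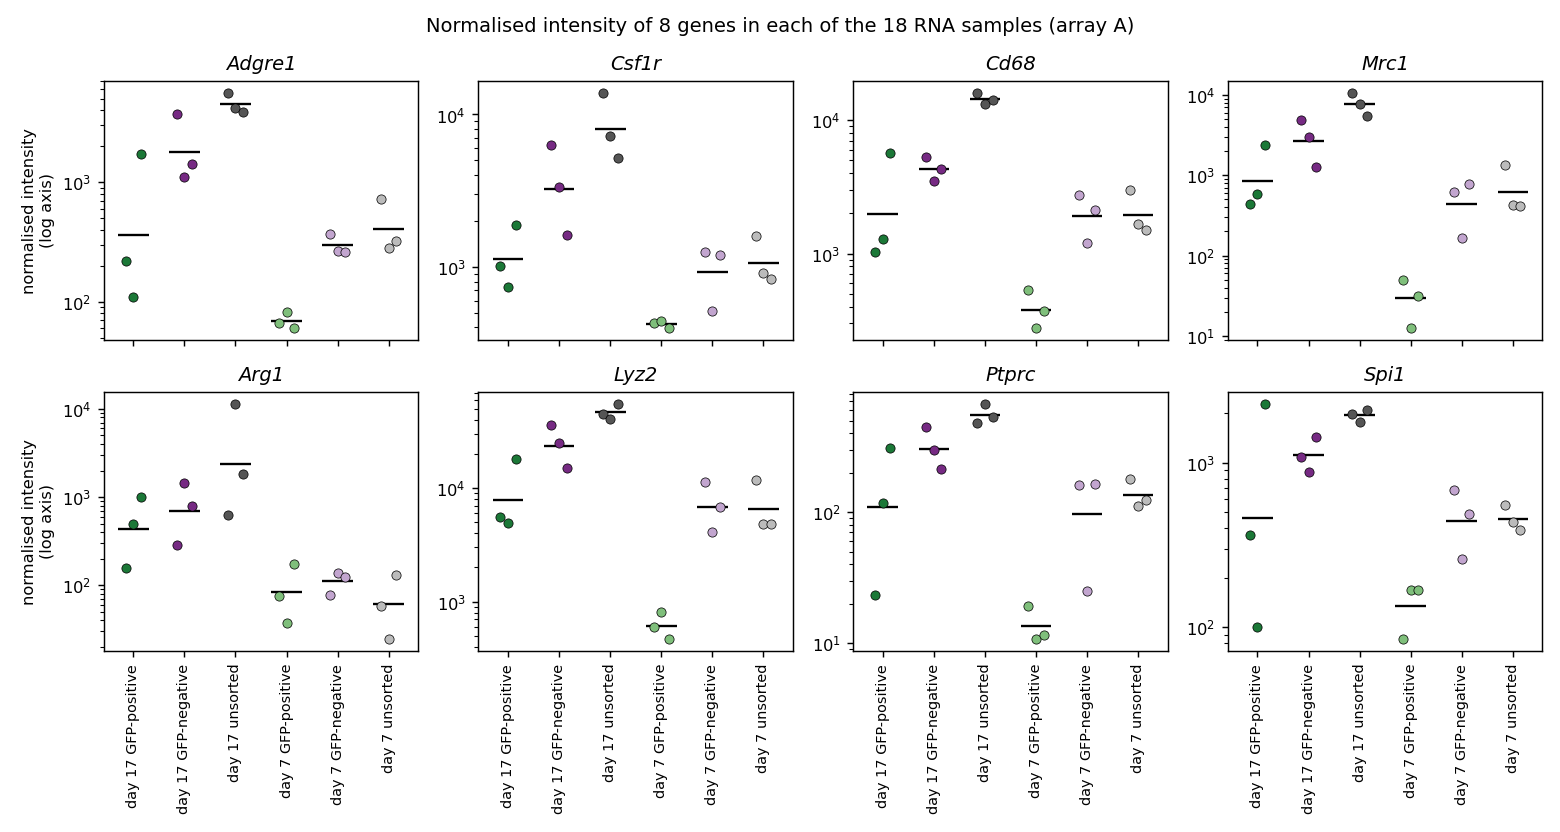
Normalised intensity (log axis) of 8 genes in each RNA sample on array A, by day and fraction; points are samples and bars are group means on the log2 scale. For Cd68 the 3 day 17 unsorted samples (13223 to 16027) lie above all other samples, and for Spi1 GFP-positive Exp106 of day 17 (2273) is the highest of all 18 samples.

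At day 17 both sorted fractions lay below the unsorted cells they were sorted from. In 26 of the 32 tested genes the unsorted sample was above both its GFP-positive and its GFP-negative fraction in all 3 experiments, beside 10.2% of all 5647 genes tested on array A. At day 7 this held for 4 of 32 genes, beside 2.64% of all, and there unsorted Exp101 and Exp103 did not deviate together with the sorted samples of their number (r of -0.252 to -0.0332). Within single experiments the unsorted sample was above both fractions in 29, 30 and 28 genes at day 17 and in 20, 24 and 11 genes at day 7. The share of all genes was not counted for single experiments, so these counts do not set the members apart from other genes. Summed over the 32 genes, the intensity was 38953 to 136380 in the GFP-positive samples, 107540 to 176180 in the GFP-negative samples and 291600 to 357220 in the unsorted samples of day 17. Every sorted sample of day 17 was thus below every unsorted sample of day 17 in this sum.

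In GFP-positive against unsorted cells at day 17, 28 of 38 member probe sets of 22 genes were called lower, beside 5.49% of all probe sets called lower, and 0 were called higher. The median over the 32 genes was -2.50, with all 32 below 0, and within Exp100, Exp105 and Exp106 it was -3.11, -2.98 and -1.20. Sirpa, an inhibitory receptor of myeloid cells and neurons, had 134, 343 and 2612 in GFP-positive cells, against 7234, 5558 and 6057 in unsorted cells (-3.52 ± 0.71, 11.5-fold lower, adjusted p = 0.0072), and its 3 probe sets were all called. Cd53, a tetraspanin of leukocytes, had 67.7, 211 and 1804 in GFP-positive cells, against 5026, 6987 and 5156 in unsorted cells (-4.0 ± 0.84, adjusted p = 0.0086). In both genes Exp106 was the highest of the GFP-positive samples and still below every unsorted sample.

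Other receptors and effectors fell likewise in GFP-positive cells. Adgre1 had 219.7, 109 and 1711 in GFP-positive cells, against the 3836 to 5582 of unsorted cells (-3.51 ± 0.68, adjusted p = 0.0057). Csf1r had 1009, 734 and 1894, against 5203 to 13877 (-2.81 ± 0.50, adjusted p = 0.0028), and Cd68 had 1034, 1276 and 5699, against 13223 to 16027 (-2.85 ± 0.50, adjusted p = 0.0027). Mrc1 differed by -3.12 ± 0.68, Apoe by -3.55 ± 0.76, Stab1 by -3.06 ± 0.70, Ctss by -2.69 ± 0.57 and Lyz2 by -2.56 ± 0.50, all called. Standard errors were smaller than these for Irf5 (-1.80 ± 0.21, adjusted p = 0.00013), Cyba (-1.52 ± 0.20, adjusted p = 0.00028) and Lcp1 (-2.50 ± 0.35, adjusted p = 0.00054). Spi1, Arg1, Cd5l, Fcgr2b, Fcer1g, Cybb, Lcp2, Cd52, Cd14 and Rac2 were not called, and Rac2, a small GTPase of blood cells, was nearest to 0 at -0.12 ± 0.50. With the experiment as a block 36 of 38 member probe sets were called lower, beside 11.9% of all, and of these 10 genes Lcp2 and Rac2 alone remained without a call. The calls borrow spread from all 18 samples: with only the GFP-positive and unsorted groups of day 17 in the fit, 1 member probe set was called, beside 0.216% of all probe sets called lower, and the median was -2.53. Leaving out any 1 sample left 19 to 31 member calls. The share of all probe sets called in those fits is not given, so this range describes the setting only. The calls of Apoe, Ctss, Itgb2, Lgals3, Mrc1, Msr1, Stab1 and Tyrobp were lost without at least 1 of unsorted Exp100, unsorted Exp105, unsorted Exp106, GFP-positive Exp100 and GFP-positive Exp105 (highest adjusted p 0.275, Lgals3).

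**Figure D3:**
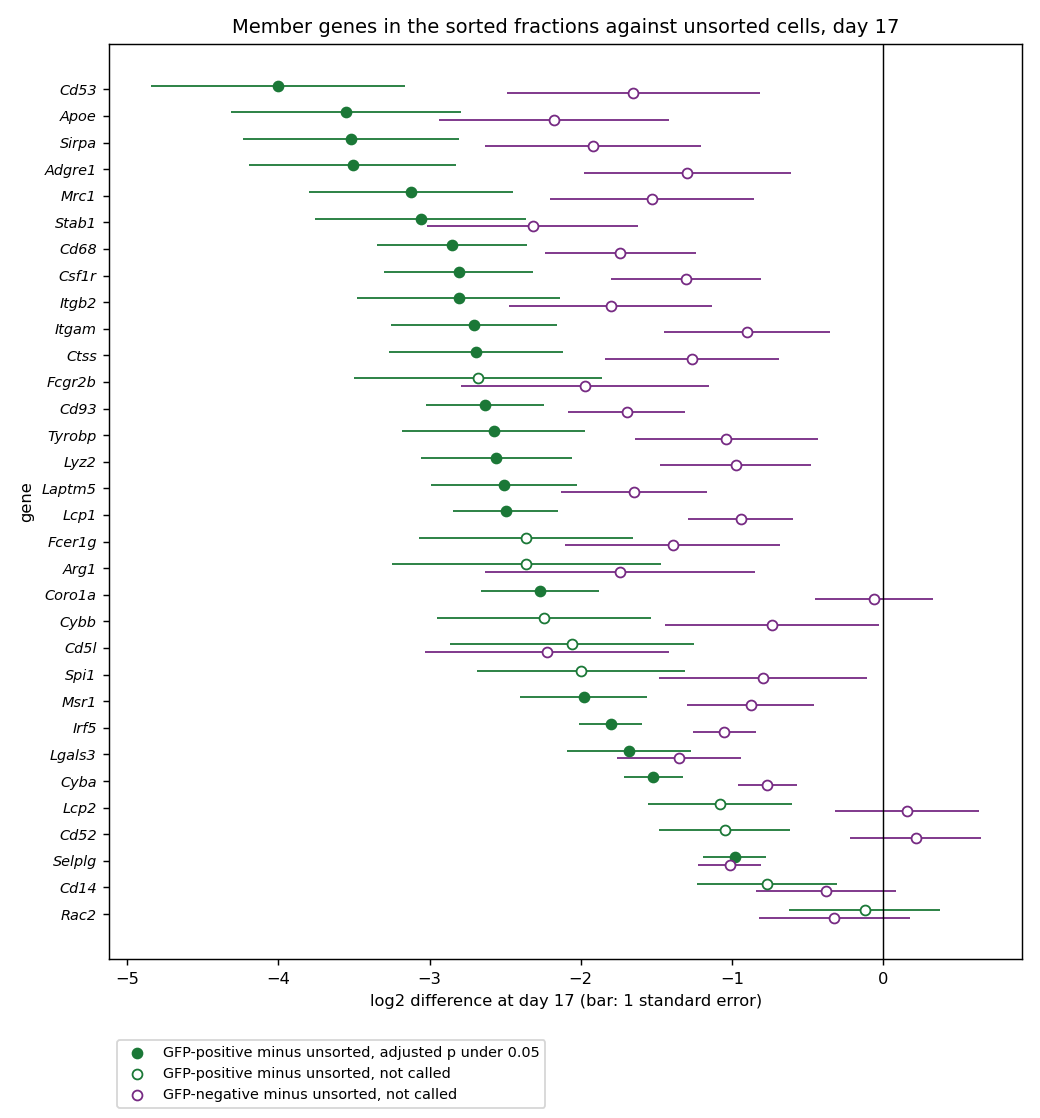
Log2 difference of each tested member gene from unsorted cells at day 17 (x axis; bar, 1 SE), for GFP-positive cells (green) and GFP-negative cells (purple); filled points passed an adjusted p of 0.05. All 32 green points lie below 0 and 30 of 32 purple points do, from -2.32 for Stab1 to 0.22 for Cd52, none of them filled.

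Values of further members called in GFP-positive against unsorted cells follow for all 3 day 17 groups. Stab1 had 540.1, 354 and 1975 in GFP-positive cells and 3030.4, 997 and 626 in GFP-negative cells, against 9876, 5267 and 4852 in unsorted cells. Cd93 had 211, 314 and 729.8 in GFP-positive cells and 696, 596 and 952 in GFP-negative cells, against 2632, 2792 and 2002 in unsorted cells. For both receptors no sorted sample reached the lowest unsorted one on array A. On array B, where only Exp106 had unsorted RNA, another probe set of Stab1 differed. It had 2072, 2391 and 3093 in GFP-positive cells and 2718, 1980 and 1697 in GFP-negative cells, against 2361 in unsorted Exp106. The array B probe set of Cd93 had 118, 96.8 and 746 in GFP-positive cells and 2702, 1325 and 182 in GFP-negative cells, against 8592 in unsorted Exp106. Msr1, a class A scavenger receptor, had 237, 275 and 999 in GFP-positive cells and 808, 958 and 984 in GFP-negative cells, against 1426, 1974 and 1755 in unsorted cells. Itgam had 88.5, 64.3 and 222 in GFP-positive cells and 545, 466 and 409 in GFP-negative cells, against 992, 1240.0 and 598 in unsorted cells. In each of these genes GFP-positive Exp106 was the highest of its group. Lgals3 had 2724, 6654 and 13816 in GFP-positive cells and 7627, 7544 and 8719 in GFP-negative cells, against 14388, 25865 and 22453 in unsorted cells, so that its highest GFP-positive sample came close to the lowest unsorted one.

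Signalling and pan-leukocyte members are given next. Of these, Cd52 and Lcp2 were not lower in GFP-negative than in unsorted cells (log2 differences of 0.22 ± 0.43 and 0.16 ± 0.48, not called). Tyrobp had 979, 805 and 4578 in GFP-positive cells and 8013, 3858 and 3028 in GFP-negative cells, against 11720.0, 9959 and 7018 in unsorted cells. Fcgr2b had 334, 313 and 1998 in GFP-positive cells and 1439, 832 and 840.2 in GFP-negative cells, against 3908, 4301 and 3894 in unsorted cells. Neither gene's groups of GFP-positive and unsorted samples overlapped, and Fcgr2b was not called there (-2.68, adjusted p = 0.059). Lcp1 had 684, 896 and 1971 in GFP-positive cells and 4011, 2683 and 3040.5 in GFP-negative cells, against 7322, 5854 and 5504 in unsorted cells. Laptm5 had 1300.1, 1294 and 6357 in GFP-positive cells and 4570.2, 3030.4 and 4756 in GFP-negative cells, against 14149, 10266 and 14196 in unsorted cells. In Laptm5 GFP-positive Exp106 lay above all GFP-negative samples, and in Lcp1 it lay below them. Itgb2 had 25.9, 280.3 and 531 in GFP-positive cells and 667, 492 and 193 in GFP-negative cells, against 1751, 1934 and 963 in unsorted cells. Selplg had 987, 1072 and 1314 in GFP-positive cells and 1276, 1124 and 902 in GFP-negative cells, against 2112, 1995 and 2644 in unsorted cells. Its fractions overlapped with each other and lay together below the unsorted samples. Cyba had 4538, 5497 and 6619.8 in GFP-positive cells and 9966, 8639 and 9247 in GFP-negative cells, against 16413, 14686 and 16321 in unsorted cells, the 3 groups lying apart in that order.

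GFP-negative cells at day 17 had a median nearer to the unsorted cells in Exp100 and Exp105, but not in Exp106, and no member was called. In GFP-negative against unsorted cells, 0 of 38 member probe sets were called, beside 0.0134% of all probe sets. At an unadjusted p under 0.05 there were 21 member probe sets, and 524 of all 7455. The median over the 32 genes was -1.28, with 30 below 0, and it was -0.89, -1.36 and -1.41 in Exp100, Exp105 and Exp106, where that of GFP-positive cells was -3.11, -2.98 and -1.20. In 26 of the 38 member probe sets every GFP-negative sample lay below every unsorted sample, beside 6.05% of all probe sets. With the experiment as a block, 4 member probe sets were called lower, beside 0.416% of all: Cyba, Selplg, Irf5 and Cd93. Cd68 had 5281, 3495 and 4301 in GFP-negative cells, against 13223 to 16027 in unsorted cells (-1.74 ± 0.50, adjusted p = 0.49). Lyz2 had 36095, 24935 and 14982, against 40683 to 55506 (-0.98 ± 0.50, adjusted p = 0.74), and Coro1a, an actin regulator of leukocytes, had 1228, 1040.1 and 1203, against 809 to 1752 (-0.06 ± 0.39). Coro1a thus overlapped between these groups where Cd68 and Lyz2 did not. The comparisons of GFP-positive and GFP-negative cells with unsorted cells share their unsorted samples.

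Between the sorted fractions at day 17 the direction differed between experiments. In GFP-positive against GFP-negative cells, 1 of 42 member probe sets was called lower, beside 1.13% of all 22099 probe sets, and 0 were called higher. It was Coro1a, with 159.9, 161 and 424 in GFP-positive cells, against 1228, 1040.1 and 1203 in GFP-negative cells (-2.21 ± 0.43, adjusted p = 0.025), and it lost its call without any 1 of GFP-negative Exp100, Exp105 or Exp106 and GFP-positive Exp100 or Exp105 (highest adjusted p 0.19). With the experiment as a block 5 were called lower, beside 3.26% of all: Coro1a, Cyba, Cd52, Lcp1 and, by another of its probe sets, Sirpa. The 30 genes had a median of -1.22, with 27 below 0. Within experiments, however, the median was -2.16 in Exp100 (30 of 30 genes below 0), -1.51 in Exp105 (29 of 30) and 0.35 in Exp106 (10 of 30). Only 9 of the 42 member probe sets had every GFP-positive sample below every GFP-negative sample, beside 7.43% of all.

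Single genes showed the same split. Adgre1 had 219.7 and 109 in GFP-positive Exp100 and Exp105, against 3745 and 1104 in their GFP-negative partners, and 1711 in GFP-positive Exp106, against 1405. Mrc1 had 437 and 587 in GFP-positive Exp100 and Exp105, against 4951 and 3022, and 2409.9 in GFP-positive Exp106, against 1257. Spi1 had 365 and 100.9, against 1084 and 882, and 2273 in Exp106, against 1428. Without Exp106 18 of 35 member probe sets were called lower, beside 3.26% of all 21115 probe sets so fitted, and the median was -2.0 over 26 genes. Leaving out GFP-positive Exp106 alone gave 17 of 40 called lower, beside 2.34% of all, among them Adgre1, Cd68, Lyz2 and Spi1, and leaving out all of Exp106 called Csf1r and Mrc1 as well as Cd68 and Lyz2.

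**Figure D4:**
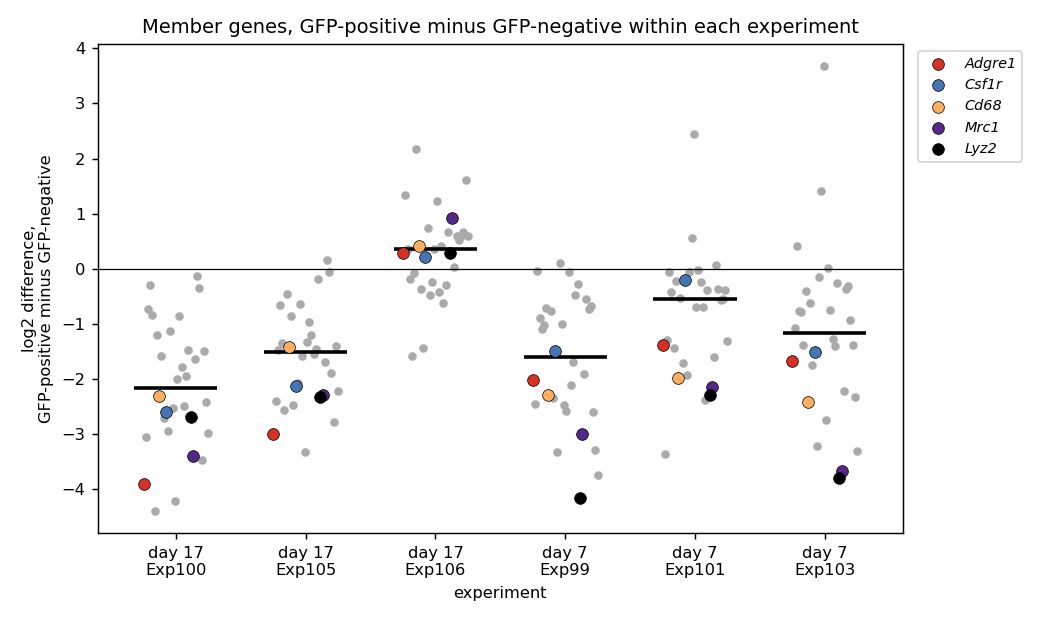
Log2 difference of GFP-positive minus GFP-negative cells within each experiment, for 30 member genes (points, 5 coloured as in the legend) and their median (bar). The medians are -2.16, -1.51 and 0.35 at day 17 and -1.60, -0.56 and -1.18 at day 7; Exp106 is the only experiment with its median above 0.

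At day 7 the GFP-positive cells had lower levels of most members than the GFP-negative cells, but no probe set on the arrays was called by limma. In GFP-positive against GFP-negative cells at day 7, 0 of 42 member probe sets passed, beside 0% of all 22099 probe sets, while 14 members and 327 of all probe sets had an unadjusted p under 0.05. The median over the 30 genes was -1.15, with 28 below 0, and -1.28 without array B. In 20 of the 42 member probe sets every GFP-positive sample lay below every GFP-negative sample, beside 3.54% of all. Lyz2 had 595, 813 and 463 in GFP-positive cells, against 11265, 4109.5 and 6878 in GFP-negative cells (-3.42 ± 0.52, adjusted p = 0.35). Mrc1 had 49.9, 12.5 and 31.2, close to the lowest deposited value of 10, against 624, 166 and 772 (-2.94 ± 0.72). Ctss, Tyrobp and Cd68 differed by -2.83 ± 0.61, -2.79 ± 0.65 and -2.24 ± 0.55. With the day 17 samples of Exp106 left out of the fit, 3 of 35 member probe sets were called lower, beside 0.0189% of all, and Lyz2 was one of them.

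F13a1, the A subunit of coagulation factor XIII and a marker of resident macrophages, differed between its arrays. On array B it had 181, 628 and 2029 in day 7 GFP-positive cells, against 1156, 89.3 and 129 in GFP-negative cells. On array C, where a sample of array A went best with its own experiment for 9 of 12 samples, against 6 of 12 on array B, it had 178, 279.6 and 265 in GFP-positive cells, against 3250, 3511 and 2021 in GFP-negative cells (-3.42 on array C, 1.21 on array B). At day 17 both arrays had GFP-positive Exp100 and Exp105 lowest, with 76.3 and 116 on B and 167 and 325 on C, against 1061 to 1982 and 3750 to 4101 in GFP-negative cells. GFP-positive Exp106 had 1367 on B, within the range of GFP-negative cells, and 7500 on C, above it. None of its differences was called.

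Against unsorted cells at day 7, GFP-positive cells had 1 of 38 member probe sets called lower, beside 0.0402% of all probe sets: Lyz2, at -3.35 ± 0.50 (adjusted p = 0.021), and that call was lost without any 1 of the 6 samples (highest adjusted p 0.22). The median over the 32 genes was -1.31. GFP-negative against unsorted cells had 0 called, beside 0% of all, with a median of -0.15 and 0 members at an unadjusted p under 0.05. At this day Cd68 had 2732, 1192 and 2132 in GFP-negative cells, against 3005, 1670.4 and 1489.5 in unsorted cells, so these groups overlapped.

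The days were also compared within the sorted fractions. In GFP-positive cells at day 17 against day 7, 7 of 42 member probe sets were called higher, beside 1.9% of all: Ctss (4.22 ± 0.61), Apoe (3.89 ± 0.82), Mrc1 (3.86 ± 0.72), Lyz2 (3.64 ± 0.52), Fcgr2b (3.41 ± 0.89), Tyrobp (3.32 ± 0.65) and Cd68 (2.28 ± 0.55). Ctss, Lyz2 and Mrc1 were called under every alternative, while Fcgr2b (highest adjusted p 0.14) was called under 1 of 13. Day 7 GFP-positive cells had 83.1, 10.7 and 11.5 of Fcgr2b, the last 2 next to the lowest intensity, and its difference lay between 2.24 and 4.24 over the alternatives. Another probe set of Apoe, on array C, was not called. It had 1522, 1250 and 4094 in GFP-positive cells of day 17, against 1676, 1579 and 1924 in those of day 7. With the experiment as a random block 4 member probe sets were called higher, beside 1.7% of all: Ctss, Lyz2, Mrc1 and Cd14. There were 3 or 4 member calls without day 7 GFP-positive Exp99, Exp101 or Exp103, given here without the share of all probe sets called in those fits. The median of 1.35 over the 30 genes was 0.57 without GFP-positive Exp106. In GFP-negative cells 0 member probe sets were called between the days, beside 0.538% of all, with a median of 1.40 and with 17 member probe sets and 2510 of all 22099 at an unadjusted p under 0.05. Without Exp106 8 of 35 were called higher, beside 1.42% of all. The GFP effect did not pass the test of a difference between days: 0 members were called, beside 0.253% of all, and the median of that difference was 0.18. At an unadjusted p under 0.05 there were 3 of 42 member probe sets and 1356 of all 22099.

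Genes named for other cells gave the surroundings of these values. Of a list of other myeloid genes, 30 were tested on array A, and 10 rose in unsorted cells at day 17 against day 7 (3.04% of all probe sets did) and 10 fell in day 17 GFP-positive against unsorted cells (5.49% of all did). Pla2g7, a lipoprotein-associated phospholipase of macrophages, rose by 3.45 ± 0.80 and Marco, a scavenger receptor, by 3.18 ± 0.83 in unsorted cells, and Ncf4 and Cd48 differed by -3.34 ± 0.80 and -2.78 ± 0.58 in GFP-positive against unsorted cells. Of a list of other alternative activation genes, 4 were tested on array A, with a median of 0.80 between the unsorted groups. Folr2, a folate receptor of resident macrophages, rose by 2.29 ± 0.28 and Igf1 by 1.14 ± 0.27 in unsorted cells. In day 17 GFP-positive against unsorted cells Il4ra fell by -3.31 ± 0.53 and Folr2 by -1.57 ± 0.28. Il4ra also fell in GFP-positive cells between days (-2.73 ± 0.54), where the called members rose, while 6 of the 7 tested genes of its list lay above 0. Also called lower there were Arhgdib (-1.12 ± 0.26), of the other myeloid list, and H2-DMa (-1.83 ± 0.26). Called higher there were Clec4d (2.83 ± 0.63) and Evi2a (0.99 ± 0.23), of the other myeloid list, and the B cell gene Ighm (1.65 ± 0.35). Of the lists of other leukocytes on array A, 2 neutrophil, 3 T and NK cell, 6 B cell and 3 mast cell genes were tested. Of these, 0 were called in unsorted cells between days or in day 17 GFP-positive against unsorted cells. In the dendritic and MHC class II list 1 of 6 rose in unsorted cells (Itgax, 1.67 ± 0.40), and in the osteoclast list 0 of 5 did. In GFP-positive against unsorted cells at day 17, 1 gene of each list fell: H2-DMa, of the MHC class II pathway (-2.04 ± 0.33, adjusted p = 0.0018), and Tcirg1, a proton pump subunit of osteoclasts (-1.48 ± 0.34, adjusted p = 0.013). Between unsorted groups, the medians of these lists of other leukocytes, dendritic and osteoclast genes lay between 0.15 and 0.99, against 2.30 for the members. The other myeloid list had a median of 1.46. The osteoblast list had one of 2.28, close to that of the members, with 4 of 7 tested genes called higher. The summed intensity of the 5 osteoclast genes was 13794 to 22053 in day 17 unsorted cells and 12197 to 12706 in day 7 unsorted cells. Of a list of growth support genes, mostly cytokines and chemokines, 6 were tested on array A. In day 17 GFP-positive against unsorted cells 3 of them were called lower: Cxcl12 (-2.95 ± 0.51), Ccl2 (-2.09 ± 0.59) and Csf1 (-1.57 ± 0.45). Between the unsorted groups 0 of the 6 were called.

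**Figure D5:**
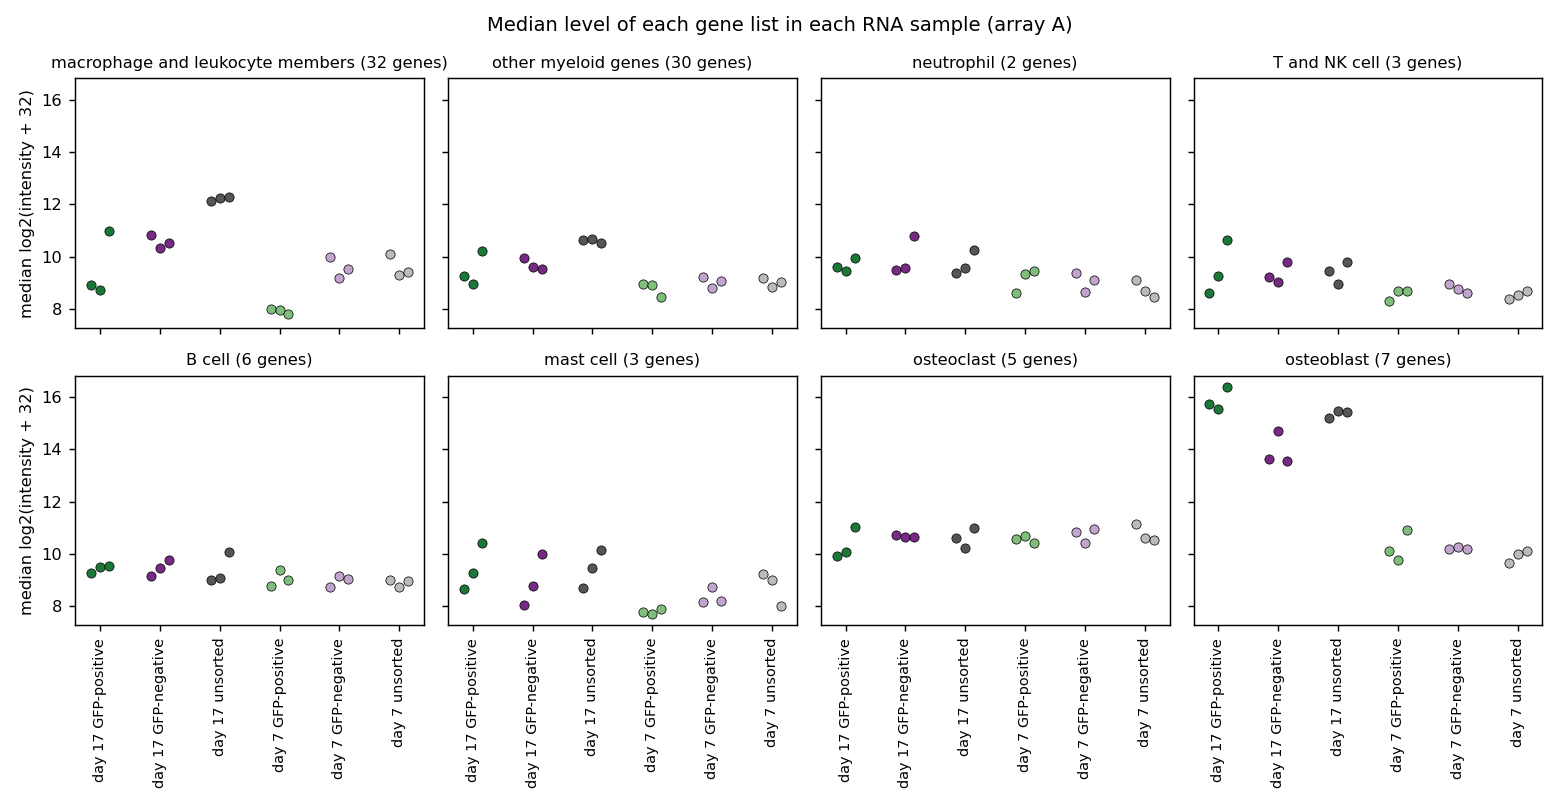
Median of log2(intensity + 32) of each gene list in each RNA sample on array A, by day and fraction; points are samples. The members lie between 12.1 and 12.3 in day 17 unsorted cells and between 7.80 and 8.0 in day 7 GFP-positive cells, and the 6 B cell genes stay between 8.71 and 10.1 in all 6 groups.

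Across the 18 samples on array A the members did not follow each other equally. The correlation of a member with the mean of the other members was 0.986 for Lcp1, 0.985 for Cd68 and 0.976 for Adgre1. It was 0.634 for Rac2, 0.668 for Cybb and 0.696 for Lgals3. All genes share the same arrays, and these values are a description. Among 5615 other genes on array A the 10 most like the members' mean were C1qc (r = 0.991), Mpeg1 (0.985), C1qa (0.974), Gatm (0.973), C1qb, Lyl1, C3ar1, Lilr4b, Clec4d and Pld4 (0.957). The 3 C1q genes encode the chains of complement C1q, and Mpeg1 encodes the pore-forming protein perforin-2. C1qc had 28164, 19545 and 24442 in day 17 unsorted cells, against 3453, 1608 and 1439.6 in day 7 unsorted cells, and 1910, 1810.7 and 10874 in day 17 GFP-positive cells, against 10790, 5812 and 6572 in day 17 GFP-negative cells. It thus had the Exp106 pattern of the members.

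PU.1 binds a purine-rich core, and its letters were looked for in the 250 bases before the transcription starts of members in the RefSeq promoter windows of build GRCm38.p6. Of the 37 genes 24 had a window. The letters GAGGAA, on either strand, were in the windows of 13 of these 24 genes (54.2%), against 25.9% of all 27025 genes with a window, and the longer GAGGAAGT, which contains them, was in 0 of 24, against 2.79%. A match is not a bound site, and genes with several starts had several chances. The stretches below are from members called both in day 17 against day 7 unsorted cells and in GFP-positive against unsorted cells of day 17, from 20 bases before the first match to 20 after the last, within the window and 5′ to 3′ on the gene's strand. Capitals mark GAGGAA or its reverse complement TTCCTC.
Apoe (chr7:19698505-19698550, minus strand): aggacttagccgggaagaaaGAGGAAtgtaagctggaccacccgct
Cd68 (chr11:69666370-69666415, minus strand): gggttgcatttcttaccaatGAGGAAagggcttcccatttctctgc
Ctss (chr3:95526602-95526647, plus strand): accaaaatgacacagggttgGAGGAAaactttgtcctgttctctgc
Itgam (chr7:128062536-128062639, plus strand): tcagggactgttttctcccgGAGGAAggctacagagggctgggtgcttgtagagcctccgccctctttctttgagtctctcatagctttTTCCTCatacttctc
Laptm5 (chr4:130913258-130913303, plus strand): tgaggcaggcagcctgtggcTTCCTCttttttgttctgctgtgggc
Mrc1 (chr2:14229214-14229404, plus strand): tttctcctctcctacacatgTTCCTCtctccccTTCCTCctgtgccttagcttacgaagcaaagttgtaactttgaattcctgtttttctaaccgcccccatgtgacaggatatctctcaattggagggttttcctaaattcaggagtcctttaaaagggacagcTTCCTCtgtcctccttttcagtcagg
Stab1 (chr14:31168646-31168691, minus strand): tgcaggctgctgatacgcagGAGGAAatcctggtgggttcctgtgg
Mrc1 had 3 matches and Itgam 2 in their windows, and the other stretches shown are of windows with 1 match. Apoe has 2 windows with 1 match each, and the one whose match begins 250 bases before its start is not shown.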

How the data were processed

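Intensities were deposited for 44 arrays, 18 of type A and 13 each of types B and C, all whole numbers and none under 10. The software and scaling behind the deposited intensities are not given in the sources used here. Groups follow the labels. Within each array type log2(intensity + 32) was quantile normalised in R 4.3.3, filtered (above the array's median on at least 3 arrays) and fitted with limma 3.58.1 (lmFit, eBayes with trend). The 12 sorted samples on A, B and C gave 22099 probe sets and all 18 samples on A gave 7455; p-values were adjusted by Benjamini-Hochberg over each. Exp106 unsorted RNA was also on B and C, which entered no fit.

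The members and gene lists were chosen with earlier results of these data known. Named were all members, 8 fixed genes whatever their values, and the 10 genes most like the members' mean. Of most non-member lists the 2 largest called changes were named, in unsorted cells between days and in day 17 GFP-positive against unsorted cells. Of the osteoblast list only 2 genes were named, as a check. In other comparisons some called list genes were named and others were left out. Samples of 1 experiment were compared by their deviations from their groups. GFP-positive and GFP-negative samples correlated on array A (0.259 to 0.687), less on B (0.109 to 0.506) and least on C (0.0187 to 0.427). Day 17 sorted and unsorted samples correlated on A at 0.560 to 0.781, while day 7 unsorted samples did not in Exp101 and Exp103 (-0.252 to -0.0332). The day 17 values set Exp106 apart but told Exp100 and Exp105 apart little. Unsorted Exp100 correlated at 0.598 with GFP-negative Exp100, at 0.578 with GFP-negative Exp105 and at -0.681 with GFP-negative Exp106. The blocked fit stands beside day 17 results and comparisons of days in GFP-positive cells whose calls it moves; for day 7 unsorted cells, whose numbers do not pair, it is in the closing section. Alternatives were pseudocounts of 8 and 128, no filter, the deposited scale, the block, only the groups compared, and samples left out; leaving out array B was chosen after seeing the data. The fits were also run on simulated data, with independent samples and 1 spread for all probe sets. Those data had no shared deviation within an experiment and no sample set apart like Exp106, so they do not bear on how these affect the calls.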

Additional observations from a re-analysis of the deposited data

Results flagged for a closer look

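Arg1 differed in direction between days. GFP-positive minus unsorted cells had a mean of -2.36 (log2) over the 3 experiments of day 17 and of 0.30 over the 3 of day 7. Paired by their labels, all 3 experiments of day 17 lay below 0 and all 3 of day 7 above 0. At day 7, however, unsorted Exp101 and Exp103 did not deviate together with GFP-positive cells of their number (r of -0.0332 and -0.101). GFP-positive Exp101 (37.3) lay below unsorted Exp103 (131), so the count for day 7 depends on those labels. The day 7 values were also near the lowest intensities. Arg1 had 158, 496 and 1011 in GFP-positive cells, against 629, 11393 and 1841 in unsorted cells of day 17, and 74.6, 37.3 and 174 in GFP-positive cells, against 57.4, 24.2 and 131 in unsorted cells of day 7. The difference between the days was not tested, and neither difference passed the test by itself. Groups of 3 samples were not searched for outlying samples.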

How the results depend on the processing

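Of 936 values of single genes recomputed under the alternatives, 821 kept their direction and side of the threshold, 104 lost a call, 9 gained one and 2 changed sign. The 2 were Arg1 in GFP-positive against GFP-negative cells: leaving out 1 sample gave -1.22 to 0.036 at day 17 (highest without GFP-positive Exp100) and -0.73 to 0.054 at day 7 (highest without GFP-positive Exp101). Of 51 calls, 17 were kept under every alternative, 14 of them in unsorted cells between days and 3 in GFP-positive cells between days. With the replicate block 5 member probe sets were called lower in GFP-positive against GFP-negative cells at day 17, beside 3.26% of all. In GFP-positive cells between days 4 were called higher, beside 1.7% of all. In GFP-negative against unsorted cells at day 17 4 were called lower, beside 0.416% of all. In GFP-positive against unsorted cells at day 7 the block called 5 lower, beside 0.161% of all. The day 7 unsorted samples, however, share only a number with the sorted ones. In unsorted cells between days the block ended the calls of Itgam and Itgb2 and added Cd14. With only the groups compared they were 0, 3, 1 (GFP-negative cells between days), 1 (GFP-positive against unsorted, day 17) and 3 (day 7), and the difference between days in the GFP effect has no such fit. Without Exp106 3 member probe sets were called in GFP-positive against GFP-negative cells at day 7 (0.0189% of all) and 18 at day 17 (3.26% of all). In GFP-negative cells between days 8 were called (1.42% of all), and in GFP-positive against unsorted cells at day 7 8 were called. The median in unsorted cells between days was 2.75. Counts in this section without a share of all probe sets beside them describe the setting only. Without the filter 2 were called in GFP-positive against GFP-negative cells at day 17, and with a pseudocount of 8 there were 4 in GFP-positive against unsorted cells at day 7, whose median was -0.93 with the larger pseudocount. Leaving out 1 sample gave 0 to 17 calls in GFP-positive against GFP-negative cells at day 17, 3 to 7 in GFP-positive cells between days and 0 in GFP-positive against unsorted cells at day 7 in each case. It gave medians of -0.58 to 0.42 for the difference between days in the GFP effect, 2.27 to 2.71 in unsorted cells between days, -1.45 to -0.97 in GFP-negative against unsorted cells at day 17 and -1.38 to -0.95 in GFP-positive against unsorted cells at day 7. Apart from fewer samples or features, the cause was not tested. Without array B the calls were 0, 1, 6, 0 and 0 in the comparisons of sorted cells. Values near the lowest intensity of 10 have no order, and 3 samples a group limit the precision.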
